A study of Mus musculus with 9 samples.

Results

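The proteasome gene family was followed through mouse spinal cord injury. Every gene whose symbol begins with Psm, followed by a letter from a to g and a digit, was taken, which gave 54 of the 34745 genes counted. Of these, 48 encode subunits, activators, a regulator or assembly chaperones of the proteasome, and 5 of the 48 (Psmb8, Psmb9, Psmb10, Psme1 and Psme2) are the interferon-inducible genes of the immunoproteasome. The other 6 were kept apart: 4 pseudogenes, the retrocopy Psme2b, and Psmc3ip, a meiotic recombination factor. Psme2b is annotated as protein-coding, with 717 coding bases, as many as Psme2. The symbols, not measured values, decided membership.

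Whole spinal cord RNA was sequenced from wild type C57BL/6 mice aged 7 to 9 weeks, in 3 groups of 3 libraries. Sham mice, labelled as having no injury, were set beside mice with spinal cord injury (SCI) and injured mice treated with hyperbaric oxygen (HBO), all on day 7 after injury. Hyperbaric oxygen is the breathing of oxygen at raised pressure in a chamber; oxygen pressure, session number and lesion level were not given in the sources used here. It is not stated whether libraries of a group are separate animals, so p-values measure the spread between libraries, which may be technical.

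The proteasome degrades proteins tagged with ubiquitin. Its barrel, the 20S core, stacks outer rings of alpha subunits on inner rings of beta subunits, and cuts peptides at the catalytic beta subunits Psmb5, Psmb6 and Psmb7. A 19S cap, built of ATPases (Psmc genes) and of other base and lid subunits (Psmd genes), binds and unfolds the substrates. Under interferon, Psmb8, Psmb9 and Psmb10 are built into new barrels in place of Psmb5, Psmb6 and Psmb7, and Psme1 and Psme2 form PA28, another cap. This immunoproteasome, made constitutively by many immune cells, shifts cleavage towards peptides that fit class I histocompatibility molecules.

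Psmb8, Psmb9 and Psme1 were called higher than sham in both injured groups, and their promoters are shown for that reason. Each is the 250 bases before the RefSeq transcription start on GRCm38.p6, on the gene's own strand, and capitals mark a motif match. The window of Psmb8 is chr17:34197945-34198194 on the plus strand, that of Psmb9 is chr17:34187331-34187580 on the minus strand, and that of Psme1 is chr14:55578244-55578493 on the plus strand. The gene models of the deposited files begin further upstream, so all 3 windows lie within them.
Psmb8: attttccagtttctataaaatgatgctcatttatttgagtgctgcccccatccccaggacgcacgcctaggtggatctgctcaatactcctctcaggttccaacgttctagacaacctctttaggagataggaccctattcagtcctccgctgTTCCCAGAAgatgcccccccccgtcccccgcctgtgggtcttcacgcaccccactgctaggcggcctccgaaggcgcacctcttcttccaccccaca
Psmb9: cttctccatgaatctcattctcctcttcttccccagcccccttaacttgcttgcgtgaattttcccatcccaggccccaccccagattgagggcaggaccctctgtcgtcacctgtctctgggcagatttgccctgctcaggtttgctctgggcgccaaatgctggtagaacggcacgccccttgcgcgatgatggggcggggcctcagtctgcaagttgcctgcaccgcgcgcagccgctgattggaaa
Psme1: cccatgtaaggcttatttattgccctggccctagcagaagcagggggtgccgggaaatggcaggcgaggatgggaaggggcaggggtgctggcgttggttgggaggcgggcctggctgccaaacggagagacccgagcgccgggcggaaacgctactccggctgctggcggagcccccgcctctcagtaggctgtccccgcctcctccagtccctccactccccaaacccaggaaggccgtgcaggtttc

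Of the 48 named members, 40 had a promoter in the RefSeq table, among them all 5 interferon-inducible genes. Searched on both strands, the gamma-activated site TTCNNNGAA (N is any base), a motif of interferon gamma response, was in 1 of the 5 inducible promoters, that of Psmb8, and in 1 of the 35 others, that of Psmg1, against 7.18% of all 27025 promoters. The interferon response element (GAAA, then NN, then GAAA) was in 0 of 5 and in 3 of 35 (Psmb3, Psmd4 and Psmd9), against 3.04% of all. The antioxidant response element TGACNNNGC was in 0 of 5 and in 5 of 35 (Psmb5, Psmb6, Psmc6, Psmd12 and Psmd9), against 10.1%. A match describes letters in this window and does not show that a factor binds there.

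A near-identical copy limits what can be said of Psme2. Psme2b, on chromosome 11 (48945354 to 48946190), is a retrocopy of the spliced Psme2 transcript, whose gene lies on chromosome 14 (55587441 to 55591113). Over 794 aligned bases 789 were identical (99.37%), and the longest run without a mismatch was 341 bases. All 5 substitutions, counted from the first base of the Psme2 start codon with the base of Psme2 first, are in the coding part: C312T, A369G, C489T, C519T and C543T. Coding bases 486 to 545 hold 3 of them, in capitals here, and show how few positions can tell reads of the copies apart.
Psme2: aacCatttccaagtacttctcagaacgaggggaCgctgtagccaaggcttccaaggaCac
Psme2b: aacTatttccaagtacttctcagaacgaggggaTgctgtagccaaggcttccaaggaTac
Psme2b took 61.2% to 72.4% of the joint reads of the pair in the 9 libraries. The split between the copies is therefore uncertain, and their summed counts are given beside the single ones.

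Libraries held 11159587 to 15715484 counts. Levels below are CPM, counts relative to the size of the library after scaling by TMM (a trimmed mean of the ratios between libraries), and group values are mean ± SD of 3 libraries. Differences are log2 fold changes ± SE from edgeR's quasi-likelihood test, fitted over the 17901 genes that passed its filter on low counts, and a gene was called at a Benjamini-Hochberg adjusted p under 0.05. Of the 54 members, 49 passed that filter. The 5 left out were the 4 pseudogenes and Psmb11, the catalytic subunit of the thymus, which had at most 0.074 CPM in any library.

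In sham cord the immunoproteasome was a minor form at the RNA level. Per kilobase of the principal coding transcript, Psmb8 stood at 3.35 ± 0.289 CPM and Psmb9 at 2.29 ± 0.23. Their constitutive counterparts Psmb5 and Psmb6 stood at 26.9 ± 3.66 and 82.4 ± 12 CPM per kilobase. Psmb10 was at 10 ± 1.59 and its counterpart Psmb7 at 60.5 ± 2.92 on the same scale. Of the 48 named members, Psma8 (0.302 ± 0.035) and Psmb11 were the only ones below Psmb8 and Psmb9 in sham. The highest was Psmc5, an ATPase of the 19S base, at 92.2 ± 15.5 CPM per kilobase.

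After injury, RNA of the immunoproteasome genes Psmb8, Psmb9 and Psme1 was higher, while most genes of the constitutive particle were not called in either direction. In SCI against sham, 10 of the 49 members tested were called, 5 higher and 5 lower, a smaller share than the 36.6% of all genes called (20% higher and 16.6% lower). The interferon-inducible genes held 3 of the 5 higher calls, with a median log2 fold change of 0.53 over the 5 genes. The other 42 tested subunits, activators, regulator and chaperones had 1 higher and 5 lower calls and a median of -0.11. The median over all genes was 0.00. DESeq2's Wald test called 12 members, against 38.8% of all genes, and 16 of 49 had an unadjusted edgeR p under 0.05, against 46.4%. The count of 10 depended on single libraries: it was 4, 5 and 6 without sham replicates 1, 2 and 3, and 3, 5 and 6 without SCI replicates 1, 2 and 3. The higher calls ranged from 2 to 6 and the lower calls from 1 to 6 with 1 library left out. Without the filter on low counts 5 members were higher and 2 lower, the calls of Psma2, Psmc1 and Psme3 being lost. In bulk tissue, fewer cells of a type and less RNA per cell cannot be told apart.

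Psmb8, the inducible counterpart of the chymotrypsin-like subunit, lies in the major histocompatibility region (chromosome 17, 34197721 to 34201454). It was at 5.82, 4.93 and 5.63 CPM in sham, at 16.7, 13.2 and 9.79 in SCI, and at 12, 17.5 and 14 in HBO. Every injured library, with or without oxygen, was above every sham library, while SCI and HBO overlapped. It rose in SCI by 1.27 ± 0.22 (2.42-fold, adjusted p = 0.00245) and in HBO against sham by 1.41 ± 0.23 (2.65-fold, adjusted p = 0.00204), and each call was kept with any 1 library left out. An antisense gene on the other strand covers 14.7% of its exon bases, and the strand setting of the counting is not given in the sources used here.

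Psmb9, the inducible counterpart of the caspase-like subunit, is its neighbour on chromosome 17 (34181988 to 34187764). Its levels were 3.43, 2.82 and 3.04 CPM in sham, 7.76, 5.68 and 4.54 in SCI, and in HBO 5.31, 9.29 and 7.2. Again no injured library fell within the sham range, and HBO replicate 1 and SCI replicate 3 were the lowest of their groups, as for Psmb8. The rise was 0.95 ± 0.27 in SCI (adjusted p = 0.0202) and 1.23 ± 0.27 in HBO against sham (adjusted p = 0.00852). The call in SCI was lost without sham replicate 2, sham replicate 3 or SCI replicate 1 (adjusted p up to 0.0844); that in HBO was kept in each case. Tap1, the peptide transporter gene on the opposite strand, overlaps 5.79% of its exon bases.

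Psmb10, the inducible counterpart of the trypsin-like subunit (chromosome 8, 105935728 to 105938392), did not follow them in SCI. It was at 15.5, 12.3 and 11.5 CPM in sham, 15.2, 14.1 and 13.1 in SCI, and in HBO 16.5, 18.1 and 16.7. The SCI libraries lay within the sham range, and the HBO libraries were above both other groups. Its difference was 0.11 ± 0.15 in SCI (adjusted p = 0.611) and 0.38 ± 0.15 in HBO against sham (adjusted p = 0.0756). The latter passed the threshold without sham replicate 1 (adjusted p = 0.0495).

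**Figure D1:**
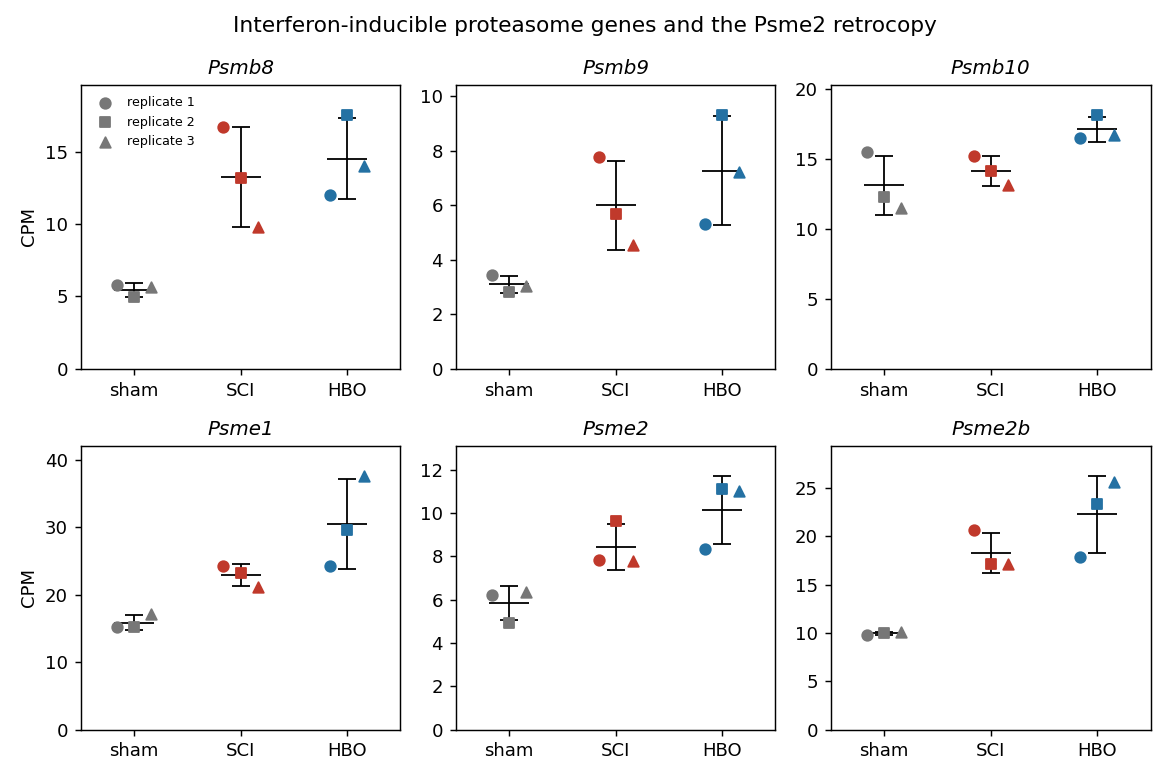
CPM (TMM-scaled) of the 5 interferon-inducible proteasome genes and of Psme2b in each of the 3 libraries of sham, SCI and HBO; symbols are replicates, and bars are mean ± SD. For Psmb8, Psmb9, Psme1, Psme2 and Psme2b every SCI and HBO library is above every sham library, whereas for Psmb10 SCI overlaps sham.

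Of the PA28 cap genes, Psme1 rose in both injured groups and Psme2 in HBO. Psme1, the alpha subunit of PA28 (chromosome 14, 55578123 to 55581529), was at 15.2, 15.2 and 17.1 CPM in sham, 24.3, 23.3 and 21.2 in SCI, and in HBO 24.3, 29.6 and 37.6. The 3 groups were in ascending order, sham below SCI and SCI below HBO, without overlap between sham and SCI and with HBO replicate 1 level with the highest SCI library. Psme1 rose by 0.53 ± 0.16 in SCI (adjusted p = 0.0276) and by 0.94 ± 0.16 in HBO against sham (adjusted p = 0.00291). The SCI call was lost without sham replicate 1, sham replicate 2, SCI replicate 1 or SCI replicate 2, with adjusted p up to 0.088, and the HBO call was kept throughout.

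Psme2, the beta subunit of PA28, was at 6.22, 4.93 and 6.37 CPM in sham, 7.83, 9.64 and 7.78 in SCI, and in HBO 8.35, 11.1 and 11. All injured libraries were above sham. Its difference was 0.52 ± 0.19 in SCI (adjusted p = 0.0534, passing the threshold without HBO replicate 1), and it rose by 0.80 ± 0.19 in HBO (adjusted p = 0.0118). Psme2b was at 9.81, 10 and 10.1 CPM in sham, 20.6, 17.1 and 17.1 in SCI, and in HBO 17.9, 23.3 and 25.6, and it rose by 0.87 ± 0.16 in SCI (adjusted p = 0.003) and 1.15 ± 0.16 in HBO (adjusted p = 0.00116). The HBO call of Psme2 and both calls of Psme2b were kept with any 1 library left out. With the counts of the copies summed, an alternative chosen after seeing the data, the pair rose 1.68-fold in SCI (0.75 ± 0.14, adjusted p = 0.00343) and 2.04-fold in HBO (1.03 ± 0.14, adjusted p = 0.00115).

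None of the 3 constitutive catalytic subunits was called by edgeR in any comparison. Psmb5, the chymotrypsin-like subunit, was at 25.9, 20.4 and 26.3 CPM in sham, 27.4, 21.1 and 19.1 in SCI, and in HBO 23.4, 19.1 and 12.8, with differences from sham of -0.10 ± 0.22 (adjusted p = 0.75) and -0.39 ± 0.22 (adjusted p = 0.209). HBO replicate 3, at 12.8, was the lowest of all 9 libraries. Another gene on its own strand shares 12.1% of its exon bases. Psmb6, the caspase-like subunit, was at 65.8 ± 9.56, 71.6 ± 7.22 and 65.8 ± 6.41 CPM in sham, SCI and HBO, with differences of 0.12 ± 0.13 and 0.00 ± 0.13 (adjusted p = 0.51 and 0.997). Psmb7, the trypsin-like subunit, was at 72.7, 71.5 and 66.3 CPM in sham, 55.5, 52.1 and 59 in SCI, and in HBO 65.3, 49.1 and 64.4. The SCI and HBO libraries of Psmb7 were all below sham, by -0.34 ± 0.12 (adjusted p = 0.0564, under the threshold without HBO replicate 2) and -0.24 ± 0.12 (adjusted p = 0.177). A gene on the opposite strand covers 11.8% of the exon bases of Psmb7.

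The ratio of each inducible subunit to its constitutive counterpart within a library depends neither on library scaling nor, as a fold between groups, on gene length. Set to a sham mean of 1, the ratio of Psmb8 to Psmb5 counts was 0.992, 1.07 and 0.946 in sham, 2.69, 2.75 and 2.27 in SCI, and in HBO 2.27, 4.04 and 4.82. That of Psmb9 to Psmb6 was 0.958, 1.05 and 0.993 in sham, 2.12, 1.64 and 1.51 in SCI, and in HBO 1.62, 2.83 and 2.61. That of Psmb10 to Psmb7 was 1.15, 0.928 and 0.939 in sham, 1.48, 1.46 and 1.2 in SCI, and in HBO 1.36, 1.99 and 1.4. In all 3 pairs, every injured library exceeded every sham library, and SCI overlapped HBO. A ratio moves with both of its genes. In SCI against sham, Psmb10 differed by 0.11 ± 0.15 and Psmb7 by -0.34 ± 0.12 on the log2 scale. HBO replicate 3, with the highest ratio of Psmb8 to Psmb5, had the lowest Psmb5 of all 9 libraries (12.8 CPM). Its Psmb8, at 14 CPM, lay between the other HBO libraries.

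Group values were compared as means of the log2 ratios, not as means of the ratios above. On this basis the ratio of Psmb8 to Psmb5 was 2.56 times the sham ratio in SCI and 3.53 times in HBO. For Psmb9 to Psmb6 these were 1.74 and 2.29 times, and for Psmb10 to Psmb7 1.37 and 1.56 times. In the deposited FPKM (fragments per kilobase of gene length, scaled for depth), Psmb8 made up 4.88% ± 0.282 of Psmb8 and Psmb5 together in sham, 11.6% ± 1.06 in SCI and 15.8% ± 4.84 in HBO. With the length of the principal transcript in place of the authors' gene length, these shares were 11.1% ± 0.6, 24.3% ± 1.92 and 31.1% ± 8.04, so the share itself depends on the length used. In the deposited FPKM, Psmb9 went from 2.28% ± 0.103 of its pair in sham to 3.92% ± 0.685 in SCI and 5.18% ± 1.36 in HBO. Psmb10 went from 34.2% ± 2.72 to 41.6% ± 2.84 and 44.8% ± 5.25. With the length of the principal transcript, the shares of Psmb9 were 2.71% ± 0.123, 4.66% ± 0.807 and 6.13% ± 1.6. Those of Psmb10 were then much lower, at 14.1% ± 1.48, 18.4% ± 1.73 and 20.5% ± 3.56. The two-sided exact permutation test of each share gave p = 0.1 in all 6 comparisons with sham, the smallest p that 3 against 3 libraries can reach (0.15 adjusted over the 9 tests), so none can pass 0.05 by design.

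**Figure D2:**
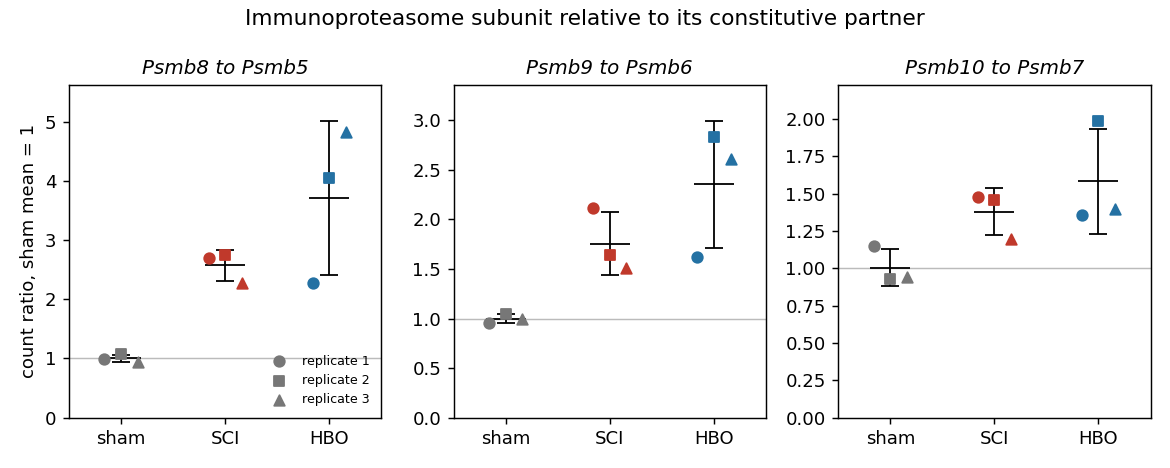
Count ratio of each immunoproteasome subunit to the constitutive subunit it replaces, per library and relative to the sham mean (grey line at 1); symbols are replicates, and bars are mean ± SD of 3 libraries. The SCI and HBO libraries lie above sham in all 3 pairs, up to 4.82 for Psmb8 to Psmb5 in HBO replicate 3, and SCI and HBO overlap.

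The constitutive 20S core held 1 call. Of its 14 constitutive subunits, 0 were called higher and 1, Psma2, lower in each comparison with sham, against 20% and 16.6% of all genes in SCI and 17.4% and 13.5% in HBO. The medians were -0.08 in SCI and -0.10 in HBO. Psma2, an alpha ring subunit (chromosome 13, 14613242 to 14625671), was at 59.4, 56.5 and 52.6 CPM in sham, 44.5, 45.6 and 43.7 in SCI, and in HBO 48.9, 40 and 44.6. All injured libraries were below sham, and it fell by 0.33 ± 0.11 in SCI (adjusted p = 0.0354) and by 0.34 ± 0.11 in HBO (adjusted p = 0.0395) on the log2 scale. The SCI call was lost in 5 of 9 leave-one-out fits (without sham replicates 1 or 2, or any SCI library), with adjusted p up to 0.122. Of the leave-one-out fits, only that without HBO replicate 1 kept the HBO call. Without the filter on low counts neither call held (adjusted p = 0.0677 and 0.0685). The other 6 alpha subunits lay between -0.22 and 0.12 in SCI, and the 4 beta subunits without catalytic activity between -0.19 and 0.21.

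Among the 17 subunits of the 19S cap with a Psm symbol, 1 rose and 2 fell in SCI, against 20% and 16.6% of all genes. All 6 ATPases, the ring that unfolds the substrate, had log2 fold changes below 0 in SCI (-0.56 to -0.06, median -0.29), and 2 of them, Psmc1 and Psmc5, were called. Psmc5 (chromosome 11, 106256154 to 106263120) was at 135, 97.9 and 131 CPM in sham, 73.7, 92.6 and 81.2 in SCI, and in HBO 105, 71.2 and 82.1. The lowest sham library exceeded all SCI libraries but not HBO replicate 1. Psmc5 fell by 0.56 ± 0.17 in SCI (adjusted p = 0.027) and by 0.49 ± 0.17 in HBO against sham (adjusted p = 0.0493), the largest fall among the ATPases in each. The SCI call was lost without sham replicates 1 or 3 or SCI replicates 1 or 3 (adjusted p up to 0.0994), and the HBO call in 7 of 9 leave-one-out fits, being kept only without sham replicate 2 or HBO replicate 1. The HBO call was also lost without the filter (adjusted p = 0.0517) and with SCI left out of the fit (adjusted p = 0.0663).

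Psmc1 (chromosome 12, 100110186 to 100123364) was at 97.5, 72.5 and 98 CPM in sham, 64.7, 73.1 and 69.6 in SCI, and in HBO 83.4, 73.6 and 76.8. Sham replicate 2 lay within the SCI range. It fell by 0.37 ± 0.13 in SCI (adjusted p = 0.0455), a call kept, of the leave-one-out fits, only without sham replicate 2 and lost without the filter (adjusted p = 0.0675) or with HBO left out of the fit (adjusted p = 0.0592), and differed by -0.20 ± 0.13 in HBO (adjusted p = 0.272). The other ATPases with SCI fully below sham were Psmc2 (74.7 ± 3.05 against 62.7 ± 2.61 CPM, adjusted p = 0.0758) and Psmc6 (78.7 ± 2.75 against 62.3 ± 5.54 CPM, adjusted p = 0.117), neither called.

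The 8 lid subunits with a Psm symbol had a median of -0.04 in SCI and 1 call. That was Psmd8 (chromosome 7, 29174188 to 29180701), at 53.9, 43.8 and 61.6 CPM in sham, 87.3, 80.6 and 66.2 in SCI, and in HBO 61.9, 74.2 and 81.1. All injured libraries were above sham, by a narrow margin in HBO replicate 1. It rose by 0.55 ± 0.16 in SCI (adjusted p = 0.0206) and differed by 0.45 ± 0.16 in HBO (adjusted p = 0.056), and the SCI call was lost without sham replicates 1 or 2 or SCI replicates 1 or 2 (adjusted p up to 0.0756). Psmd14, the deubiquitinase that strips ubiquitin from substrates, was at 54.9 ± 2.57, 45.9 ± 1.56 and 46.8 ± 3.49 CPM in sham, SCI and HBO (-0.26 ± 0.10, adjusted p = 0.0697 in SCI). The base subunits Psmd1, Psmd2 and Psmd4, of which Psmd2 and Psmd4 bind ubiquitin, lay between -0.19 and -0.09 in SCI, and 0 of 3 were called.

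The largest fall of any tested member in SCI was that of an assembly factor. Psmd5, a chaperone that holds ATPases of the 19S base before it joins the core (chromosome 2, 34849734 to 34874968), was at 53.9, 54 and 46.9 CPM in sham, 38.1, 27.8 and 31.3 in SCI, and in HBO 36, 29 and 27.9. Sham was apart from both injured groups, which overlapped each other. Psmd5 fell by 0.67 ± 0.15 in SCI (adjusted p = 0.00651) and by 0.74 ± 0.15 in HBO (adjusted p = 0.00578), and both calls were kept with any 1 library left out. The other base chaperones, Psmd9 and Psmd10, differed by -0.19 ± 0.12 and -0.05 ± 0.19 in SCI (adjusted p = 0.254 and 0.863). The 4 chaperones of the core, Psmg1 to Psmg4, lay between -0.17 and 0.45 in SCI, none called; Psmg1 was highest, at 5.43 ± 0.978 CPM in sham and 7.4 ± 1.08 in SCI (adjusted p = 0.144).

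Of the caps that interferon does not induce, Psme3, the nuclear PA28 gamma (chromosome 11, 101316213 to 101323537), was at 101, 101 and 99.6 CPM in sham, 87, 82 and 79.4 in SCI, and in HBO 88.4, 75.5 and 86.1. Injured libraries were all below sham. It fell by 0.28 ± 0.10 in SCI (adjusted p = 0.0435), a call lost without any 1 of the 6 sham or SCI libraries or without the filter (adjusted p = 0.0945), and differed by -0.27 ± 0.10 in HBO (adjusted p = 0.0562). Psme4, a nuclear activator that acts on histones, was at 107 ± 9.05, 123 ± 8.42 and 126 ± 11.9 CPM in sham, SCI and HBO (0.20 ± 0.11 in SCI, adjusted p = 0.187). Psmf1, a regulator that binds the core, differed by -0.16 ± 0.13 in SCI (adjusted p = 0.364).

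**Figure D3:**
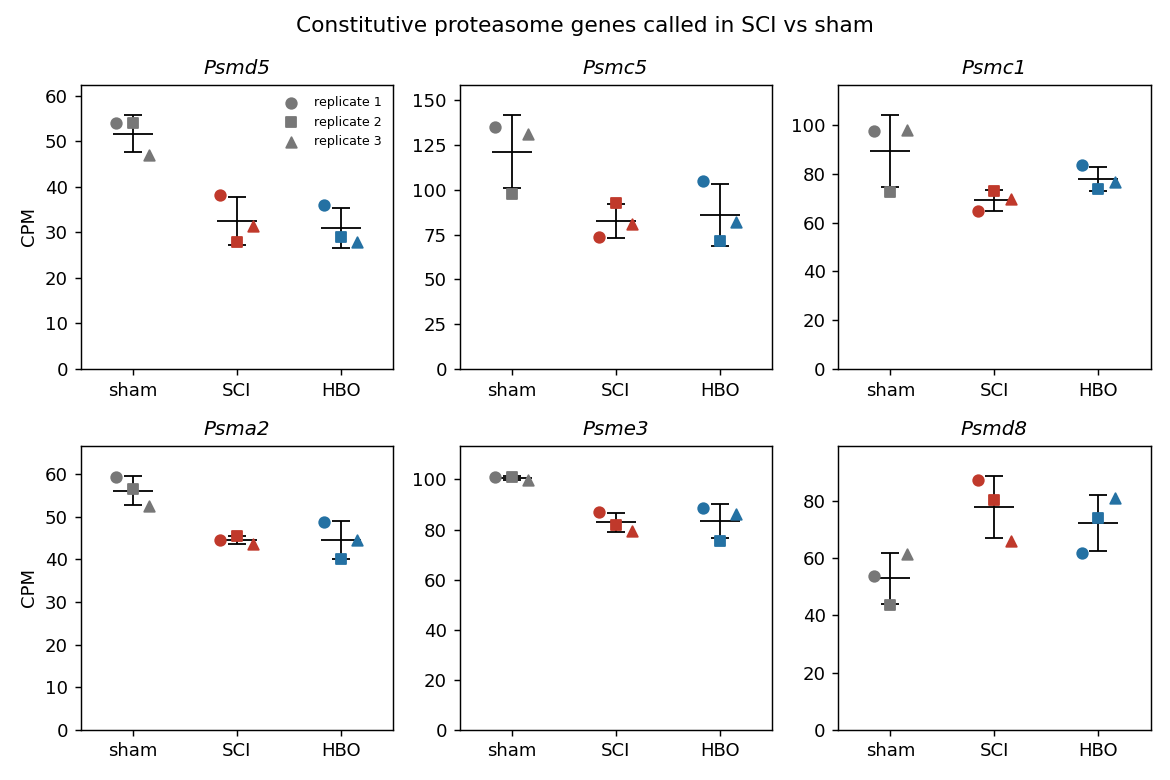
CPM (TMM-scaled) per library of the 6 called members outside the interferon-inducible genes and Psme2b, in sham, SCI and HBO; symbols are replicates, and bars are mean ± SD of 3 libraries. Psmd5 in sham (46.9 to 54 CPM) is apart from both injured groups, whereas for Psmc1 sham replicate 2 lies within the SCI range.

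Psma8, the alpha subunit of the testis proteasome, is a low gene, and none of its differences was called with all 9 libraries in the fit; with the sham and SCI libraries alone it was called higher in SCI. It was at 0.558, 0.528 and 0.444 CPM in sham, 1.17, 1.04 and 0.936 in SCI, and in HBO 0.566, 0.929 and 0.331, with SCI above both other groups (1.03 ± 0.41 against sham, adjusted p = 0.0728). Psmc3ip was at 0.957, 1.14 and 0.888 CPM in sham, 1.3, 2.01 and 1.58 in SCI, and in HBO 0.778, 1.01 and 1.82 (0.71 ± 0.37 in SCI, adjusted p = 0.161). Of the pseudogenes, Psmb7-ps2 had up to 0.496 CPM, Psmb5-ps and Psmb6-ps had reads in SCI replicate 2 alone (0.0693 CPM each), and Psmb6-ps2 had no reads.

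In HBO against sham, 8 of 49 members were called, 5 higher and 3 lower, against 30.9% of all genes tested (17.4% higher and 13.5% lower). The inducible genes gave 4 of 5 calls, with a median of 0.94. The other 42 gave 0 higher and 3 lower calls, with a median of -0.11. Groups did not overlap in 8 members with HBO higher and 10 with HBO lower, against 24.2% and 23% of all genes. DESeq2's Wald test called 10 members, against 33.9% of all genes. In SCI against sham, groups did not overlap in 9 members with SCI higher and 12 with SCI lower, against 27.6% and 26.3%. For the family as a whole the shares without overlap were thus near or below the background. All 5 inducible genes were apart from sham in HBO, and 4 of 5, all but Psmb10, in SCI.

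**Figure D4:**
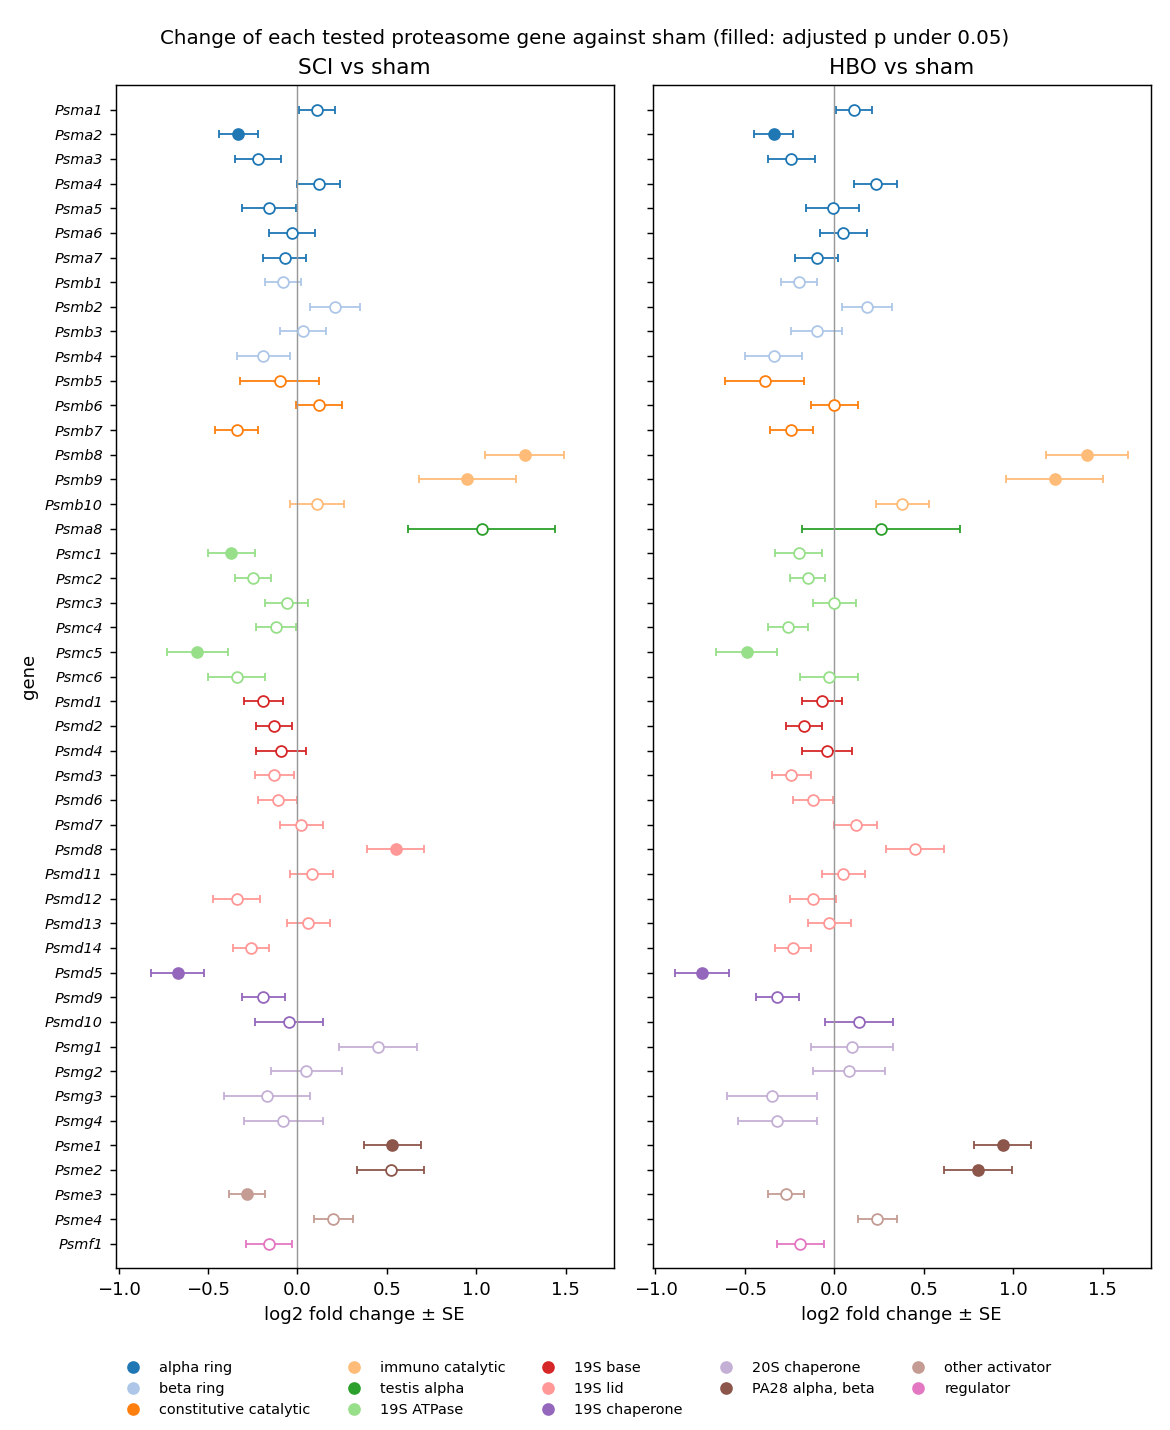
Log2 fold change ± SE of the 47 tested subunits, activators, regulator and chaperones in SCI against sham (left) and HBO against sham (right), coloured by role; filled points passed an adjusted p of 0.05. Psmb8, Psmb9 and Psme1 stand to the right in both panels, Psmd5 to the left, and most constitutive subunits lie within 0.4 of 0; both panels share the sham libraries.

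Oxygen treatment was compared with injury alone directly. In HBO against SCI, edgeR called 0 of 49 members and 0 (0%) of the 17901 genes. At an unadjusted p under 0.05 there was 1 member, Psme1, against 749 genes (4.18%), and DESeq2's Wald test called 0 members and 26 genes (0.158% of those it adjusted). All 5 inducible genes had log2 fold changes above 0: 0.13 ± 0.21 for Psmb8, 0.27 ± 0.26 for Psmb9, 0.28 ± 0.15 for Psmb10, 0.41 ± 0.16 for Psme1 and 0.27 ± 0.19 for Psme2, each with an adjusted p of 0.959 or 0.967. Psmb10 and Psme1 had HBO apart from SCI, though for Psme1 HBO replicate 1 and SCI replicate 1 both round to 24.3 CPM. In all, 3 members had HBO apart and higher and 2 apart and lower, against 3.96% and 4.07% of all genes (8.03% in either direction). For Psmb8 the sign turned without SCI replicate 3 (-0.04) or HBO replicate 2 (-0.03).

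The constitutive counterparts differed between HBO and SCI by -0.29 ± 0.22 (Psmb5), -0.12 ± 0.13 (Psmb6) and 0.10 ± 0.12 (Psmb7). By means of log2 ratios, the ratios to them were 1.38, 1.32 and 1.14 times the SCI ratio for Psmb8, Psmb9 and Psmb10. The two-sided exact permutation test of the shares gave p = 0.3, 0.3 and 0.6. By unadjusted p the next members were Psmc6, at 58, 60.3 and 68.6 CPM in SCI and 71.1, 62.1 and 98 in HBO (0.31 ± 0.16), and Psma8 (-0.77 ± 0.40), each at an adjusted p of 0.959. The SE was 0.10 to 0.26 for all tested members but Psma8 and Psmc3ip. Differences of the size of those of Psmb8, Psmb9, Psmb10 and Psme2 (0.13 to 0.28) were not resolved from the spread between libraries. That of Psme1 (0.41 ± 0.16) had an unadjusted p of 0.027 in edgeR's test. It was not called after adjustment over all 17901 genes (adjusted p = 0.959).

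Partners of the proteasome outside the family moved in both directions. Of 18 such genes, 3 rose and 6 fell in SCI against sham, against 20% and 16.6% of all genes, with a median of -0.14. They include 2 subunits of the 19S cap without a Psm symbol: Shfm1, of the lid, which rose by 0.52 ± 0.15 in SCI (adjusted p = 0.0225), and Adrm1, a ubiquitin receptor, which differed by -0.02 ± 0.17 (adjusted p = 0.941). Ddi2, the protease that activates Nfe2l1, rose by 0.31 ± 0.11 (adjusted p = 0.0494). Nfe2l2, the transcription factor NRF2 of the antioxidant response, was at 41.3 ± 6.26, 96.8 ± 7.83 and 101 ± 25.1 CPM in sham, SCI and HBO and rose by 1.23 ± 0.19 in SCI (adjusted p = 0.00131). Usp14, a deubiquitinase of the 19S cap, was at 97.4 ± 4.08, 62.9 ± 6.83 and 66.8 ± 6.18 CPM and fell by 0.63 ± 0.11 (adjusted p = 0.00265). Ube3c, a ubiquitin ligase at the proteasome, fell by 0.45 ± 0.10 (adjusted p = 0.00616) and Ubqln2, a shuttle of ubiquitinated proteins, by 0.55 ± 0.12 (adjusted p = 0.0071).

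Nfe2l1, which induces subunit genes when proteasome activity is low, was at 114 ± 45.3 CPM in sham and 94.1 ± 14.6 in SCI (-0.28 ± 0.23, adjusted p = 0.364). Its high sham mean came from sham replicate 2 (167 CPM). Sham replicates 1 and 3, at 88.1 and 88.6 CPM, lay within the SCI range of 85.3 to 111 CPM. Pomp, the maturation factor of the core, was at 44.8 ± 4.34 CPM in sham and 44.4 ± 6.7 in SCI (-0.01 ± 0.16, adjusted p = 0.962). None of 6 genes for ubiquitin and its activating enzymes was called in either comparison with sham.

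Genes of interferon signalling and of peptide supply to class I molecules, many of which interferon is known to induce, gave 8 higher and 0 lower calls of 13 tested in SCI and 13 of 13 higher in HBO against sham, against 20% and 17.4% of all genes called higher. Their medians were 0.67 and 1.14, and 0.46 in HBO against SCI, where 0 were called and 5 of 13 had HBO apart and higher (3.96% of all genes). Irf1, a transcription factor that acts on the inducible subunit genes, was at 7.64 ± 2.85, 16.9 ± 4.26 and 16.8 ± 0.52 CPM in sham, SCI and HBO (1.14 ± 0.25 in SCI, adjusted p = 0.00662). Also among the smallest p-values in SCI were Irf8, a myeloid transcription factor (1.75 ± 0.25, adjusted p = 0.00094), Calr, a chaperone of the peptide-loading complex (1.04 ± 0.18, adjusted p = 0.002), Tapbp, its bridge to the peptide transporter (0.96 ± 0.17, adjusted p = 0.00232), and the disulfide isomerase Pdia3 (0.86 ± 0.16, adjusted p = 0.00279). Ifng, the interferon gamma gene, had 0 counts in all sham and SCI libraries and 2 in HBO replicate 1, and was not tested.

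Markers of several cell types moved with the inducible genes. All 5 phagocyte markers were detected in every library, and their summed level was 303 to 518 CPM in sham, 2542 to 3466 in SCI and 1787 to 3707 in HBO. The microglia markers summed to 269 to 376, 805 to 1066 and 713 to 980 CPM. The fibroblast markers summed to 90.6 to 340 CPM in sham, 3118 to 7547 in SCI and 3917 to 8120 in HBO, those of dividing cells to 25.9 to 42.3, 131 to 285 and 108 to 231 CPM, and those of endothelium to 206 to 251, 316 to 403 and 302 to 343 CPM. Within SCI and within HBO, the libraries highest and lowest in Psmb8 and Psmb9 were also highest and lowest in phagocyte and in fibroblast markers. In SCI alone the same held for the markers of dividing cells, muscle, erythroid cells and neutrophils. In HBO alone it held for those of endothelium, Schwann cells and T and NK cells. With 3 libraries per group, such matches do not single out a cell type. Microglia markers were instead lowest in SCI replicate 2 (805 CPM) and HBO replicate 3 (713 CPM), and Psme1 was highest in HBO replicate 3 and Psme2 in SCI replicate 2, unlike the phagocyte markers. The 5 T and NK cell markers, Cd3e, Cd3g, Cd3d, Cd8a and Nkg7, were each at 0 in some library and summed to 0.849 to 2.09 CPM over all 9 libraries. The neuron markers, like the lower-called members, were lower on average in both injured groups. They summed to 3744 to 4441 CPM in sham, 1158 to 2024 in SCI and 1372 to 2704 in HBO. Within SCI, replicate 1 was lowest in neuron markers and in Psmc5 (73.7 CPM) and Psmc1 (64.7 CPM). The same library was highest in Psmd5 (38.1 CPM) and Psme3 (87 CPM), and between the others in Psma2 (44.5 CPM). The part of these cell types in the results was not tested. Markers of cord tissue were high in every library, at 7153 to 10725 CPM for oligodendrocytes and 4397 to 9927 CPM for astrocytes. SCI replicate 1 also held high muscle and erythroid markers (366 and 1297 CPM, against at most 70.9 and 406 in any other library), and HBO replicate 3 high neutrophil markers (282 CPM, against at most 70.6). Leaving out single libraries was tried for the members and not for the partner and interferon genes.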

How the data were processed

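Reads of 9 spinal cord RNA libraries had been aligned with HISAT2 to GRCm38 (mm10), per the submitters' processing notes; for the aligner version, counting tool, strand setting and annotation release, the sources used here give nothing. Values of the deposited counts are whole numbers for 34745 genes, unnormalized. The deposited FPKM column was made by the authors with 1 gene length per gene in all libraries; that length exceeded the annotated exons of GENCODE vM21 in 36 of the 48 named members and the gene itself in 6, so FPKM of different genes are distorted, and shares were also computed per kilobase of the principal transcript.

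Counts were fitted in R 4.3.3 with edgeR 4.0.16 (filterByExpr, TMM, glmQLFit and glmQLFTest, 1 mean per group over all 9 libraries) and limma 3.58.1, and p-values were adjusted over all 17901 genes tested. The SE is the absolute log2 fold change over the square root of F. Alternatives were no filter, DESeq2 1.42.0 (size factors, and its Wald test), the 2 compared groups alone, the replicate number as a block, and each library left out. Totals of 11159587 to 15715484 counts per library set the counting error. HBO vs SCI and HBO vs sham share the HBO libraries, and both comparisons with sham share the sham libraries.

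Members and lists were chosen with earlier results of these data known. Named are the 5 inducible genes and their 3 constitutive counterparts, up to 8 members with the smallest p called in each direction, where none is called the 4 with the smallest unadjusted p, and up to 4 genes per pathway list, with Irf1, Pomp and Nfe2l1; 1 further gene of this rule is not reported here. Psmc2, Psmc6 in SCI, Psmd14, Psmg1, Psme4, Psmf1, Psmd9, Psmd10 and Psmc3ip were named after their values were seen. Promoters are RefSeq's on GRCm38.p6. Of the 54 members, 2 lie on chromosome 18 and no sequence of theirs is printed.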

Additional observations from a re-analysis of the deposited data

How the results depend on the processing

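In SCI vs sham the count of called members was 10, and 7 without the filter on low counts, 10 with DESeq2 size factors, 13 with the 2 groups alone, 12 with DESeq2's Wald test and 3 to 11 with 1 library left out. In HBO vs sham it was 8, and 6, 9, 6, 10 and 6 to 11. In HBO vs SCI it was 0 throughout. Over all genes, leaving out 1 library gave 4316 to 6726, 3053 to 5777 and 0 to 4 calls in SCI vs sham, HBO vs sham and HBO vs SCI; the lowest were without SCI replicate 1 (4316), and without sham replicate 1 (3053) and HBO replicate 2 (3195). With the replicate block the members called were 7, 6 and 0. Same-numbered libraries correlated between -0.179 and 0.138 in their deviations from the group means, and differently numbered ones between -0.203 and 0.25. These values show no pairing by number, though 3 libraries a group cannot exclude it. The block lowered both counts, by Psma2, Psmc1 and Psme3 in SCI vs sham and by Psma2 and Psmc5 in HBO vs sham. Those genes were also lost without the filter. Signs turned for values near 0: Psmb5 in SCI vs sham (0.00 without SCI replicate 3, leave-one-out range -0.26 to 0.00), Psmb8 in HBO vs SCI (-0.04 to 0.34) and Psmb6 in HBO vs sham (-0.01 with DESeq2 size factors, -0.01 with its Wald test, -0.10 to 0.11 with a library left out). The cause was not tested. Psmb7 was called in SCI vs sham with the 2 groups alone and by DESeq2's Wald test, and Psma8 with the 2 groups alone. The share differences between HBO and SCI kept their sign but ranged widely with 1 library left out, from 2.16 to 6.85 percentage points for Psmb8, 0.758 to 2.03 for Psmb9 and 0.154 (without HBO replicate 2) to 4.86 for Psmb10. At this depth Psmb9 rested on 32 to 120 reads per library.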
